A study of Arabidopsis thaliana with 4 samples.

Results

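The genes described here encode the heavy metal-associated domain family of Arabidopsis thaliana, taken as every entry of the deposited gene table whose annotation names the heavy metal transport/detoxification superfamily. The copper chaperone genes ATX1 and CCH were left out by the same rule, although neither carries the phrase in its annotation. The rule found 52 genes among the 33539 genes and assembled loci used. Expression was given as FPKM (fragments per kilobase of transcript, scaled to the mapped reads of the library), which sets a read number against transcript length and library size. Of the 52 genes, 25 were above 0 FPKM in at least 1 library, 13 averaged 5 FPKM or more over the libraries, and 27 were listed at 0 in all 4.

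Proteins of this family carry a small folded domain in which a pair of cysteines separated by a pair of other residues, written Cys-x-x-Cys, can bind copper, zinc, cadmium or a related metal ion. Many end in a CaaX box, a cysteine at the fourth position from the carboxyl end to which cells attach a lipid of the isoprenoid class, and members with both features are known as heavy metal-associated isoprenylated plant proteins. In plants they are studied as carriers of metal ions, in heavy metal tolerance and in responses to stress and pathogens, and they are related to the small copper chaperones that hand copper to P1B-type ATPases.

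Whole seedlings, 5 days old, were grown on MS medium, and poly(A) RNA was sequenced as 1 library for each of 4 conditions. The control line SALK_064816C and the wbc19 mutant line SALK_107731 were each grown with no kanamycin or with 50 mg/l of it. Both lines are homozygous for a T-DNA insertion that brings a bacterial kanamycin resistance gene, so the control is not an untransformed plant. In the control line the insertion lies near TRANSPARENT TESTA 4 and interrupts no gene, and in the mutant line it lies in WBC19, which encodes an ABC transporter. Each genotype is represented by 1 insertion line. The comparisons asked how the family differed with kanamycin in each line, and between the lines with and without kanamycin. With 1 library per condition no difference was tested, and every value below compares libraries.

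The metal-binding pair and the CaaX cysteine are shown first because they separate the members whose values are given below. The following stretches come from the RefSeq coding sequences (TAIR10.1), read 5′ to 3′ on the coding strand. Each of the first 11 is a run of 30 bases, with the cysteine codons of the pair in capitals.
AT2G36950, first pair, chr2:15515384-15515413 (+): gatatgcacTGTgaaggcTGCgctaagaag
AT2G36950, second pair, chr2:15515945-15515974 (+): agactacatTGCgaaggaTGTattcagaaa
AT5G03380, first pair, chr5:834090-834119 (-): gatatgcatTGTgaaggtTGCggcaaaaaa
AT5G03380, second pair, chr5:833318-833347 (-): aagttacatTGTgaaggtTGCgaacacaaa
AT3G05220, pair, chr3:1488965-1488994 (+): aacgtacacTGTgaagggTGTaagcataaa
AT5G19090, pair, chr5:6388048-6388077 (+): aatattcatTGTgatggtTGTaagcagaaa
AT3G06130, pair, chr3:1854515-1854544 (-): aacatacacTGTgatggcTGTaagcagaaa
AT4G39700, pair, chr4:18424379-18424408 (+): aggatggatTGTgatggtTGTgtcctcaaa
AT4G16380, pair, chr4:9255131-9255160 (+): gatcttgatTGTgccaaaTGTtacaagaaa
AT5G02600, pair, chr5:585972-586001 (-): tcacttcatTGCaaaggcTGTgcagggaaa
AT3G24450, pair, chr3:8880998-8881027 (-): tcaatgcatTGCtacggaTGTgcgaagaaa
The last 18 bases of a coding sequence, stop codon included, show the CaaX cysteine codon in capitals where there is one.
AT2G36950, end, chr2:15516737-15516754 (+): ggtTGCtctgttatgtaa
AT5G52760, end, chr5:21387523-21387540 (+): aatTGTgtgattatgtga
AT5G52750, end, chr5:21384778-21384795 (+): aatTGTgtgattatgtga
AT5G02600, end, chr5:585713-585730 (-): gagattattcagaagtaa
AT5G14910, end, chr5:4825179-4825196 (+): gatgaggttcttgtctag

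Over the longest RefSeq coding sequence of each gene, 39 of the 52 members held at least 1 Cys-x-x-Cys pair, 9 of them at least 2, and 41 ended in a CaaX cysteine. Of 27474 protein-coding genes, 19.2% held such a pair and 2.72% ended in such a cysteine. Both features were present in 31 members, or 59.6%, against 0.633% of all protein-coding genes. The pairs searched were TGT or TGC, any 2 codons, then TGT or TGC in frame, leaving out pairs inside the CaaX box. A glycine codon (GGN) stood immediately before the second cysteine in 36 of the 48 pairs of the members, or 75%, against 5.95% of 11254 pairs over all coding sequences. The pair of AT4G16380 was 1 of the 12 without it. The 10 members with a CaaX cysteine and no pair included AT5G52750, AT5G52760 and AT1G01490. The 8 with a pair and no CaaX cysteine included AT5G02600 and AT3G24450, and AT5G14910 was 1 of 3 members with neither.

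Pairs and CaaX cysteines occurred both among members that were read and among those that were not. Of the 27 members listed at 0 in all libraries, 22 had a CaaX cysteine and 20 a pair, and of the 25 above 0 in some library, 19 had each. The proteins of the 27 had a median length of 157 residues against 261 for the 25, and their transcripts a median of 739 bases against 1274. At least 99.2% of the 36-base words of every member's transcript had no second exact match in the genome. Words across exon joins, which the genome may not hold, were counted among these. The paper's alignment tolerated mismatches, and placement of reads under that setting was not tested. AT5G52750 and AT5G52760 lie 1899 bases apart on the same strand and share no word of 36 bases, although the last 18 coding bases shown above are identical.

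The depth behind a value was estimated, since the deposited gene table holds no read numbers. The paper lists mapped reads per library, under codes not linked there to the conditions. In that list the libraries with more mapped reads had a lower share of their reads mapped. Which conditions these were, and any part of this in the values below, was not tested. From the steps between the lowest values, 1 read on a transcript of 1 kilobase was worth 1.31 FPKM in control and 0.666 with kanamycin in that line, and 0.795 and 1.33 in the libraries wbc19 mutant and wbc19 mutant + kanamycin. Between 83.7% and 89.6% of low values were within 0.2 of a whole read on this scale. The libraries differed in how many genes they listed at 0: 15072, 11090, 9013 and 13217 genes were above 0 in the same order. Control + kanamycin and wbc19 mutant, estimated at 1.97 and 1.65 times the depth of control, thus had the fewest genes above 0. Of the 1604, 1720, 1805 and 1681 genes at 20 FPKM or more in the other 3 libraries, 3, 30, 96 and 12 were listed at 0, in the same order. Whether such a 0 was a failed estimate was not tested. Values of 0.5 to 2.5 reads made up 19.3% and 18.3% of those above 0 in control and wbc19 mutant + kanamycin, but 3.80% and 4.32% in control + kanamycin and wbc19 mutant. WBC19 itself (AT3G55130) was listed at 0 in both libraries labelled control, and at 3.00 and 2.30 FPKM (an estimated 9.33 and 4.29 reads) in the mutant libraries without and with kanamycin. These few reads lie in the libraries where an insertion in WBC19 would lead one to look for fewer. They cannot tell whether the labels are right, so library names below are the names on the labels. The 9 markers of green shoot, among them the small subunit genes of Rubisco, were above 0 in every library with summed levels of 18235 to 24131 FPKM. Of 16 root markers, 11, 6, 4 and 9 were above 0 in the same order, with summed levels of 974, 667, 1374 and 568 FPKM that came mostly from PYK10, a gene of endoplasmic reticulum bodies, and EXPA7, RHD6 and NRT2:1, markers of root hairs and nitrate uptake, were listed at 0 in every library.

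The family was most widely present in the library labelled control. It had 20 members above 0 there against 13 in control + kanamycin, and 7 and 14 in the mutant line without and with kanamycin, or 38.5%, 25.0%, 13.5% and 26.9% of the 52. For all genes and loci the shares were 44.9%, 33.1%, 26.9% and 39.4%, so the order of the libraries was the same. Of the 20 members above 0 in control, the value in control + kanamycin was 0 for 10, that in wbc19 mutant for 14 and that in wbc19 mutant + kanamycin for 7, or 50.0%, 70.0% and 35.0%. Among the 13105 genes whose level in control lay in the range of these 20, from 1.01 to 108 FPKM, 34.0%, 45.1% and 22.8% were listed at 0 in those libraries. The summed level of the members was 397 and 207 FPKM in the control line without and with kanamycin, and 303 and 293 FPKM in the mutant line. In whole seedlings, fewer cells of a type and less RNA per cell cannot be told apart.

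**Figure D1:**
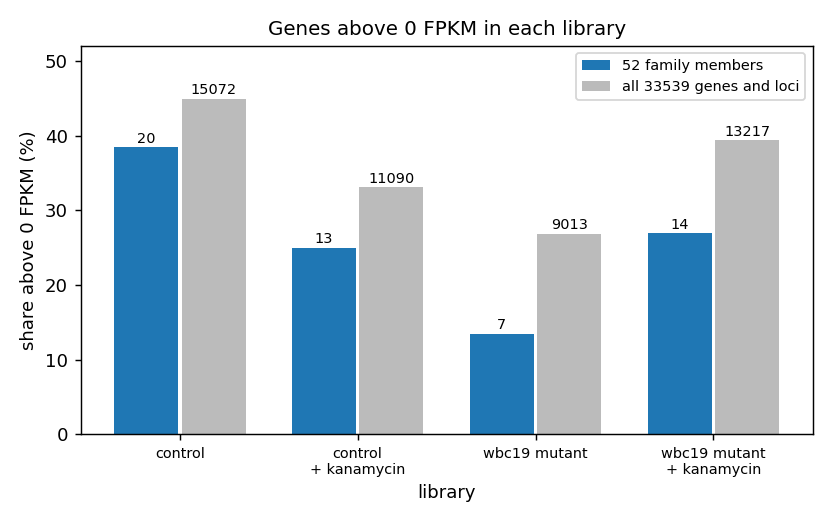
Share of the 52 family members (blue) and of all 33539 genes and loci (grey) above 0 FPKM in each of the 4 libraries, with the number of genes above each bar. Both shares were highest in control and lowest in wbc19 mutant, where 7 members were above 0.

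Only 4 members, AT2G36950, AT3G05220, AT5G14910 and AT5G19090, were above 0 in all 4 libraries. Another 5 (AT1G01490, AT1G23000, AT4G16380, AT5G03380 and AT5G50740) were above 0 in every library but wbc19 mutant, and AT3G06130 in every library but wbc19 mutant + kanamycin. The libraries control and wbc19 mutant + kanamycin, and no others, held AT1G56210, AT5G02600, AT5G23760 and AT5G24580. A further 10 members were above 0 in a single library, 5 of these in control.

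**Figure D2:**
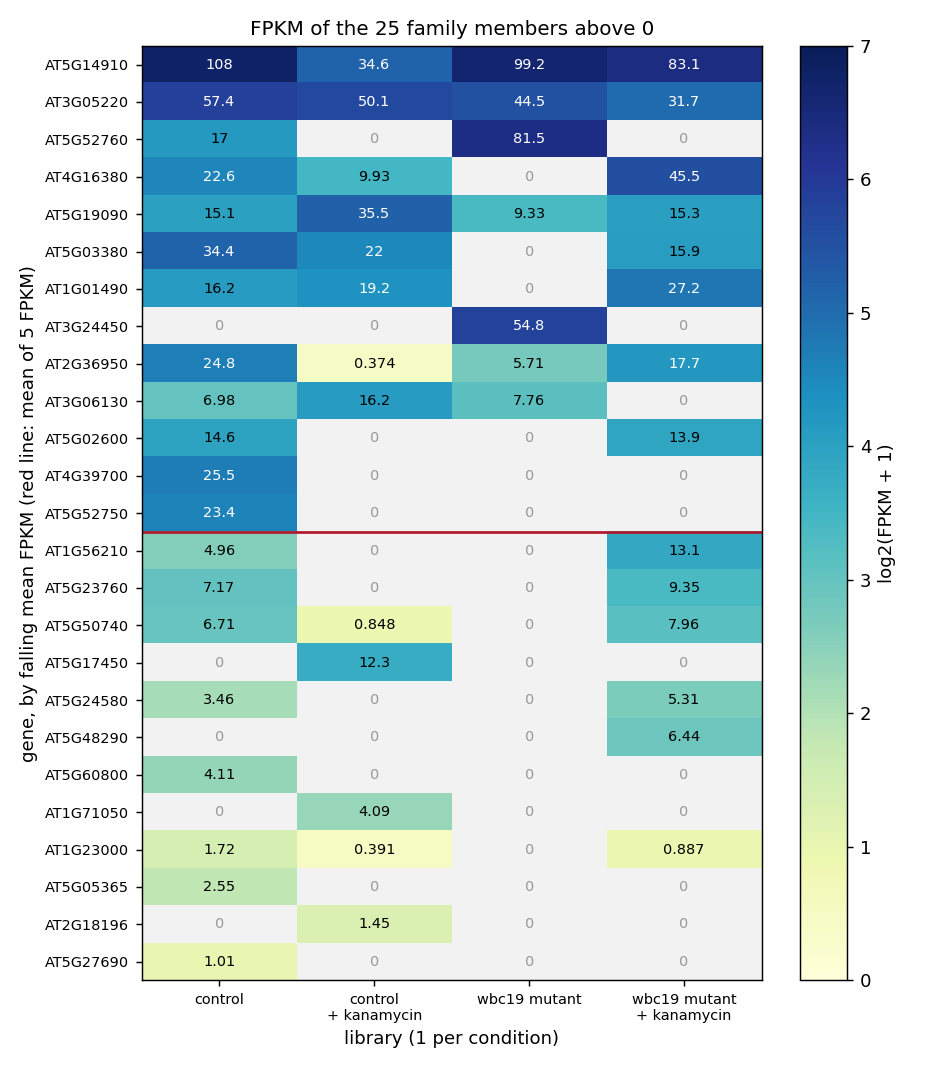
FPKM of the 25 members above 0 in at least 1 library, by falling mean, in the 4 libraries. Colour gives log2(FPKM + 1), grey cells are listed at 0, and the red line separates the 13 members that averaged 5 FPKM or more. Only 4 members have no grey cell, and the column of wbc19 mutant has 7 values above 0.

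AT2G36950, on chromosome 2 at 15515133 to 15516931, encodes a protein of 386 residues with 2 Cys-x-x-Cys pairs and a CaaX cysteine. Its level was 24.8 FPKM in control and 0.374 in control + kanamycin, and in the mutant line it was 5.71 without and 17.7 with kanamycin. The estimated reads were 26.2, 0.777, 9.95 and 18.4, so the lowest value stands for about 1 read. The 95% counting interval (exact Poisson) reached from 16.1 to 36 FPKM in control, from 0.0122 to 2.68 in control + kanamycin, from 2.75 to 10.6 in wbc19 mutant and from 10.2 to 27.3 in wbc19 mutant + kanamycin. Only neighbours in the order of the levels overlapped, namely control with wbc19 mutant + kanamycin and, narrowly, the latter with wbc19 mutant. Such intervals cover counting error only, because 1 library per condition holds no variation between plants or preparations. PCR copies of 1 molecule could not be told from separate molecules, so the intervals may be too narrow even for counting error. The ratio of control + kanamycin to control was 0.0151 (exact binomial interval 0.000477 to 0.119). The ratio of wbc19 mutant to control was 0.230 (0.10 to 0.50).

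With kanamycin the order of the lines at AT2G36950 was the opposite. The ratio of wbc19 mutant + kanamycin to control + kanamycin was 47.3, with an interval of 5.67 to 1495 that reflects the single read below it. Within the mutant line the ratio with kanamycin to without was 3.09 (1.32 to 7.29). The low libraries were therefore control + kanamycin and, less so, wbc19 mutant. These were also the libraries with the fewest genes above 0 (11090 and 9013), and the part of this in the ratios was not tested.

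AT5G03380, which also has 2 pairs and a CaaX cysteine (392 residues), was at 34.4 FPKM in control, 22.0 in control + kanamycin and 15.9 in wbc19 mutant + kanamycin, and was listed at 0 in wbc19 mutant. At the level of control, 67.0 reads would have been counted in the wbc19 mutant library. Among the libraries above 0 the ratio of control + kanamycin to control was 0.640 (0.411 to 0.978), and that of the lines with kanamycin was 0.722 (0.414 to 1.28), an interval that includes 1.

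The members with 1 pair and a CaaX cysteine included a pair of long proteins that were above 0 everywhere. AT3G05220 (577 residues) was at 57.4, 50.1, 44.5 and 31.7 FPKM in control, control + kanamycin, wbc19 mutant and wbc19 mutant + kanamycin. It rested on an estimated 99.9, 171, 127 and 54.4 reads and varied least of the 4 members above 0 throughout. Its ratio of control + kanamycin to control was 0.872 (0.675 to 1.12) and its ratio of wbc19 mutant to control 0.774 (0.589 to 1.01). The ratio of the lines with kanamycin was 0.633 (0.455 to 0.860), with the wbc19 mutant + kanamycin library the lowest of the 4.

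AT5G19090 (587 residues) was highest with kanamycin in the control line. Its levels were 15.1, 35.5, 9.33 and 15.3 FPKM in the same order, from an estimated 25.7, 119, 26.2 and 25.8 reads. The ratio of control + kanamycin to control was 2.36 (1.51 to 3.71), and that of wbc19 mutant + kanamycin to control + kanamycin was 0.431 (0.273 to 0.670). Within the mutant line the ratio was 1.64 (0.932 to 2.99).

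AT3G06130 (473 residues) was also highest in control + kanamycin. It was at 6.98 FPKM in control, 16.2 in control + kanamycin and 7.76 in wbc19 mutant, and was listed at 0 in wbc19 mutant + kanamycin. The ratio of control + kanamycin to control was 2.32 (1.14 to 5.09) and the ratio of the lines without kanamycin was 1.11 (0.478 to 2.65).

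AT4G16380 (261 residues), whose pair lacks the glycine codon, was highest in wbc19 mutant + kanamycin. It was at 22.6 FPKM in control, 9.93 in control + kanamycin and 45.5 in wbc19 mutant + kanamycin, and was listed at 0 in wbc19 mutant. The ratio of control + kanamycin to control was 0.439 (0.245 to 0.820), and that of the lines with kanamycin was 4.58 (2.71 to 7.72). At the level of control, 43.3 reads would have been counted in the wbc19 mutant library. AT4G39700 (158 residues) was at 25.5 FPKM in control, an estimated 8.59 reads on a short transcript, and was listed at 0 in the other 3 libraries.

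Members with a CaaX cysteine and no pair differed among themselves. AT1G01490 (204 residues) was at 16.2, 19.2 and 27.2 FPKM in control, control + kanamycin and wbc19 mutant + kanamycin and was listed at 0 in wbc19 mutant. Its ratios among the libraries above 0 were 1.19 (0.711 to 2.17) with kanamycin in the control line and 1.42 (0.883 to 2.24) between the lines with kanamycin, both with intervals that include 1. The same 3 libraries were thus above 0 for AT1G01490, AT4G16380 and AT5G03380.

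The neighbours AT5G52760 and AT5G52750 were listed at 0 in both libraries with kanamycin. AT5G52760, annotated first as a copper transport protein, was at 17.0 FPKM in control and 81.5 in wbc19 mutant. Its ratio of wbc19 mutant to control was 4.79 (2.41 to 10.1), from an estimated 77.4 and 9.82 reads. At the level of control, 19.3 reads would have been counted in control + kanamycin, and at the level of wbc19 mutant, 46.4 in wbc19 mutant + kanamycin. AT5G52750 was at 23.4 FPKM in control (an estimated 13.5 reads) and was listed at 0 in the other 3 libraries. It lay just inside the limit of 5 FPKM with a mean of 5.86, and AT1G56210 lay just outside with a mean of 4.52 (4.96 FPKM in control, 13.1 in wbc19 mutant + kanamycin, and listed at 0 in the others).

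Of the members without a CaaX cysteine, AT5G14910 had the highest mean of the family, although AT3G05220 and AT5G19090 were above it in control + kanamycin. Its deposited annotation places the protein in the thylakoid and stroma of the chloroplast, and it holds no Cys-x-x-Cys pair. It was at 108 FPKM in control and 34.6 with kanamycin in that line, and at 99.2 and 83.1 in the mutant line, from an estimated 64.1, 40.4, 97.2 and 48.8 reads. The control + kanamycin library was the only low one, with a counting interval of 24.4 to 46.6 FPKM that lay below those of the other 3. The ratio of control + kanamycin to control was 0.321 (0.209 to 0.479) and that of wbc19 mutant + kanamycin to control + kanamycin 2.40 (1.58 to 3.81). Without kanamycin the ratio of the lines was 0.921 (0.664 to 1.28), and within the mutant line it was 0.838 (0.586 to 1.2). Of the 9 green shoot markers, 1 was at least 2-fold higher in control + kanamycin than in control and none was lower by that much. Among all genes averaging 5 FPKM or more, 26.6% were higher and 30.8% lower. The median log2 difference of the markers was -0.23. A part of shoot content in the low value of AT5G14910 was not tested.

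AT5G02600, NAKR1, encodes a phloem protein needed for normal sodium and potassium levels and for long-distance transport. It was at 14.6 FPKM in control and 13.9 in wbc19 mutant + kanamycin, from an estimated 20.6 and 19.4 reads, and was listed at 0 in control + kanamycin and wbc19 mutant. The phloem marker SUC2, a sucrose transporter of companion cells, was at 26.0, 36.6, 9.15 and 22.9 FPKM in the 4 libraries, and APL, a regulator of phloem identity, at 3.83 and 10.3 in the control line and listed at 0 in both libraries labelled mutant. Both were above 0 in control + kanamycin, where NAKR1 was listed at 0. The NAKR1 locus overlaps AT5G02590 on the opposite strand over 1094 bases. That gene was listed at 0 in 3 libraries and at 2.56 FPKM in wbc19 mutant + kanamycin, and the sources used here do not state whether counting used the strand. The locus also shares 306 bases with the noncoding AT5G00870 on its own strand, so reads there cannot be told apart.

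AT3G24450 (140 residues, a pair and no CaaX cysteine) was read in a single library. It was at 54.8 FPKM in wbc19 mutant, from an estimated 49.6 reads, and was listed at 0 in the other 3. At that level 29.7 reads would have been counted in wbc19 mutant + kanamycin. It and AT5G52760 were the members of at least 5 FPKM whose highest library was wbc19 mutant, the library with the fewest members above 0.

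**Figure D3:**
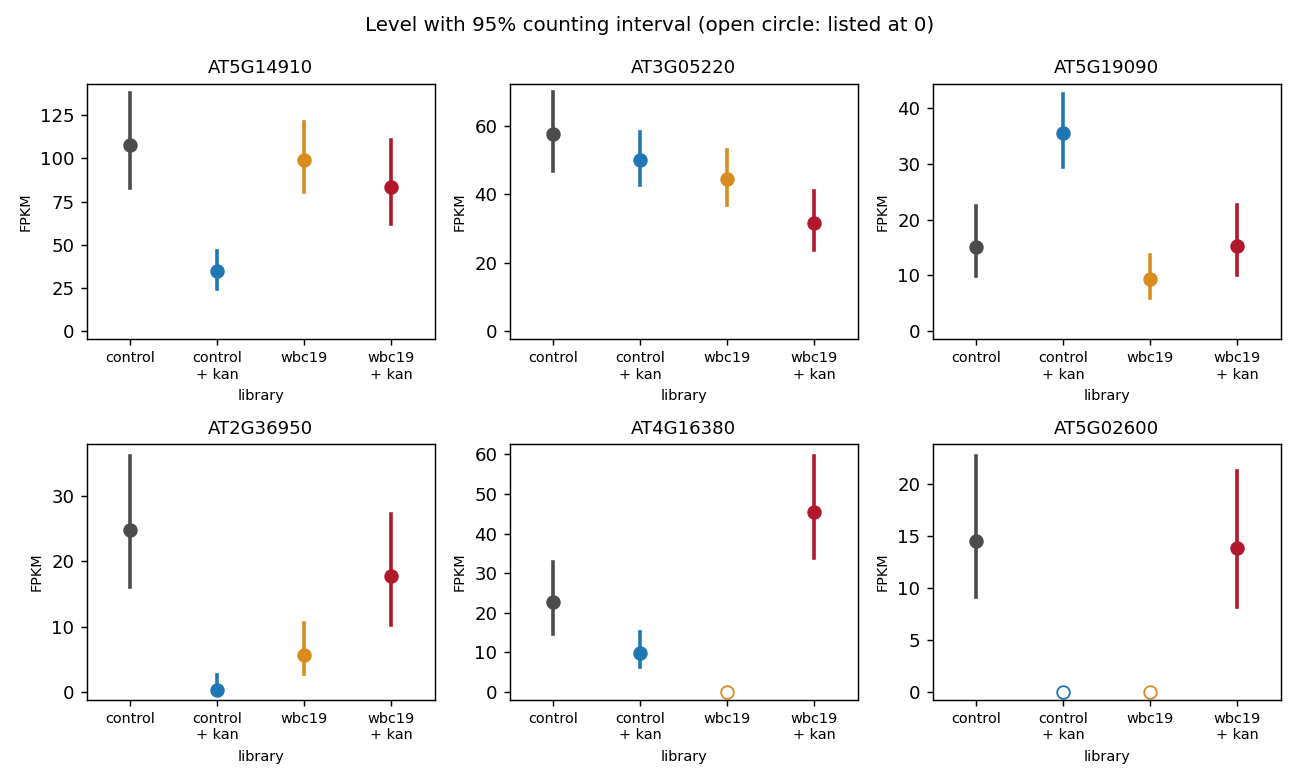
FPKM of 6 members in the 4 libraries (kan, kanamycin; wbc19, wbc19 mutant). Points are the deposited values, lines are 95% Poisson intervals of the estimated reads (counting error only), and open circles are values listed at 0. AT5G14910 is low in control + kanamycin, AT5G19090 is high there, and AT2G36950 and AT5G02600 are high in control and wbc19 mutant + kanamycin.

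Members that averaged under 5 FPKM and were above 0 somewhere numbered 12. Their highest values were 13.1 FPKM for AT1G56210 and 12.3 for AT5G17450 (HIPP21), the latter in control + kanamycin only, from an estimated 22.0 reads. HIPP20 (AT1G71050) was also above 0 only in control + kanamycin, at 4.09 FPKM. AT5G50740, with 2 pairs and a CaaX cysteine, was at 6.71, 0.848 and 7.96 FPKM in control, control + kanamycin and wbc19 mutant + kanamycin, and was listed at 0 in wbc19 mutant. AT5G05365, at 2.55 FPKM in control only, overlaps AT5G05370 on the opposite strand over 1107 bases, and that gene was at 49.2 FPKM there.

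For a summary over the family, a difference was counted where (FPKM + 1) differed at least 2-fold, a log2 difference of 1, among the 9761 genes averaging 5 FPKM or more. Of the 13 members, 2 were higher in control + kanamycin than in control and 7 were lower. Among all genes counted, 26.6% were higher and 30.8% lower. The 2 higher members were AT5G19090 and AT3G06130. Of the 7 lower ones, AT2G36950, AT4G16380 and AT5G14910 were above 0 in both libraries, and AT4G39700, AT5G02600, AT5G52750 and AT5G52760 were listed at 0 in control + kanamycin. AT4G39700 and AT5G52750 were above 0 in control alone and averaged 5 FPKM only through it, so their place among the lower ones was fixed by the limit, and AT3G24450 reached it through wbc19 mutant alone. Without these 3, a choice made after the values were seen, 2 of 10 members were higher and 5 lower. Among these 10, AT3G06130, AT5G02600 and AT5G52760 would have averaged under 5 FPKM over the 4 libraries had their highest value been 0. That value was in control + kanamycin, control and wbc19 mutant respectively. Their place in comparisons with that library therefore depends in part on the limit. The median log2 difference was -1.11 for the 13 members and 0.00 for all genes, and -0.87 for the 10. Over the 8 members above 0 in both libraries it was -0.41 against 0.19 for all such genes, of which 29.0% were higher and 20.6% lower, and 2 and 3 of the 8 members. With the libraries scaled to their upper quartiles, after which all genes had a median of -0.33, no member was higher (AT5G19090 and AT3G06130 came to 0.90 and 0.83) and the 7 lower members stayed past the limit.

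Without kanamycin, 2 of the 13 members were higher in wbc19 mutant than in control and 7 were lower, against 23.9% and 37.2% of all genes. AT5G52760 and AT3G24450 were the higher ones. Of the lower ones only AT2G36950 was above 0 in wbc19 mutant, and AT1G01490, AT4G16380, AT4G39700, AT5G02600, AT5G03380 and AT5G52750 were listed at 0 there. The median log2 difference was -1.94 for the 13 members and -0.28 for all genes. Without the 3 members above 0 in 1 library, the counts were 1 and 5 of 10 and the median was -1.29. The 1 higher member was AT5G52760, which would have averaged under 5 FPKM over the 4 libraries had its value in wbc19 mutant been 0. Over the 6 members above 0 in both libraries the median was -0.24 against 0.13, with 1 higher and 1 lower against 29.2% and 20.7% of all such genes. The lower members were thus mostly values listed at 0. The wbc19 mutant library listed the most genes at 0 of the 4, and the part of this in the counts was not tested.

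With kanamycin, 4 members were higher in wbc19 mutant + kanamycin than in control + kanamycin and 2 were lower, against 29.0% and 30.4% of all genes. The higher ones were AT2G36950, AT4G16380, AT5G14910 and AT5G02600, the last listed at 0 in control + kanamycin. The lower ones were AT5G19090 and AT3G06130, the last listed at 0 in wbc19 mutant + kanamycin. The medians were 0.00 for the members and 0.00 for all genes. Over the 7 members above 0 in both libraries the median was 0.48 against -0.27 for all such genes, with 3 higher and 1 lower against 20.6% and 31.1%. All 6 had also passed the limit between control + kanamycin and control, in the opposite direction, and these comparisons share the control + kanamycin library. A single low or high value in that library enters both. After upper-quartile scaling AT5G19090 came to -0.87 between the lines, under the limit.

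Within the mutant line, 5 members were higher with kanamycin than without and 3 were lower, against 35.7% and 27.1% of all genes. Of the 5 higher ones only AT2G36950 was above 0 in both libraries, and AT1G01490, AT4G16380, AT5G02600 and AT5G03380 were listed at 0 in wbc19 mutant. The 3 lower ones, AT3G06130, AT3G24450 and AT5G52760, were all listed at 0 in wbc19 mutant + kanamycin. The medians were 0.00 for the members and 0.08 for all genes. Over the 4 members above 0 in both libraries the median was 0.20 against -0.20 for all such genes, with 1 higher and 0 lower against 21.7% and 31.2%. Without the 3 members above 0 in 1 library, the counts were 5 and 2 of 10 and the median was 1.07.

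**Figure D4:**
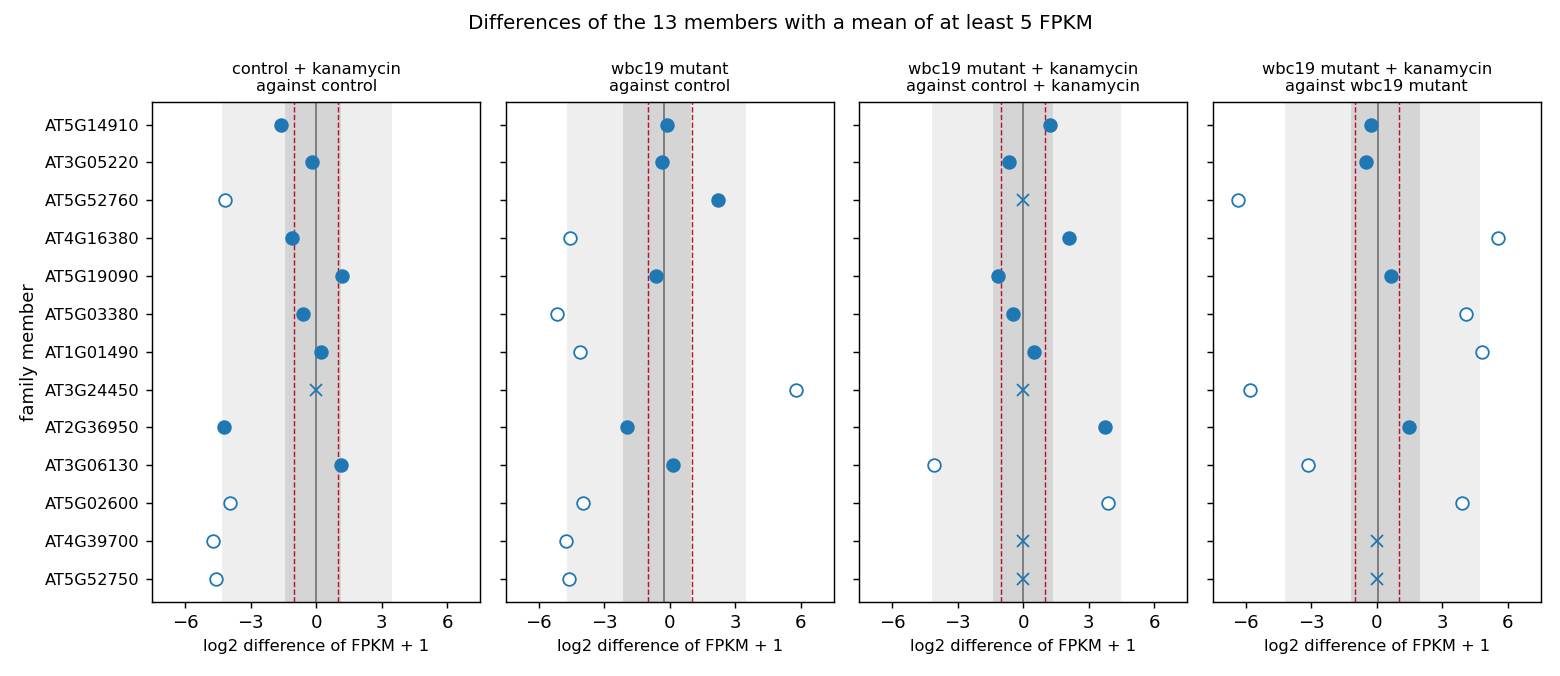
Log2 difference of FPKM + 1 for the 13 members averaging 5 FPKM or more in the 4 comparisons. Filled points are above 0 in both libraries, open points are listed at 0 in 1 and crosses in both; dark and light grey bands span the quartiles and the 5th to 95th percentiles of 9761 genes, the grey line is their median and dashed lines mark 2-fold. In wbc19 mutant against control, 6 of the 7 members beyond the lower line are open points.

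The copper chaperones left out by the rule were read at higher levels than most members. CCH was at 142, 185, 112 and 256 FPKM and ATX1 at 120, 69.8, 208 and 143 in control, control + kanamycin, wbc19 mutant and wbc19 mutant + kanamycin. Both carry copper to P1B ATPases and were above 0 in every library. CCS, which loads copper into superoxide dismutase, was at 1.08, 7.80, 12.2 and 4.46 FPKM, and COX17, which serves the mitochondrial cytochrome oxidase, was at 34.2, 143 and 32.6 and listed at 0 in wbc19 mutant + kanamycin. Of these 4 genes, 2 (CCS and COX17) were higher and 0 lower in control + kanamycin than in control, against 26.6% and 30.8% of all genes, and 1 (CCS) was higher and 0 lower in wbc19 mutant, against 23.9% and 37.2%. With kanamycin, 1 was higher (ATX1) and 1 lower (COX17) in the mutant line, against 29.0% and 30.4%. Within the mutant line 1 was higher (CCH) and 2 were lower (CCS and COX17), against 35.7% and 27.1%. CCS would have averaged under 5 FPKM had its highest value, in wbc19 mutant, been 0. Its place in comparisons with that library therefore depends in part on the limit on the mean.

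Of 8 heavy-metal P1B ATPases, 5 had a mean of at least 5 FPKM. In control + kanamycin against control, 3 were lower, namely the chloroplast copper pumps PAA1 (38.7 to 18.2 FPKM) and PAA2 (20.1 to 2.59) and the chloroplast pump HMA1 (30.6 to 13.8), and 1 was higher, the zinc pump HMA4 (2.65 to 12.8), against 30.8% and 26.6% of all genes. In wbc19 mutant against control 1 was higher, the copper pump RAN1 (8.74 and 32.4 FPKM), and 1 lower, HMA4, listed at 0 in wbc19 mutant, against 23.9% and 37.2%. Between the lines with kanamycin PAA2 was higher (21.2 FPKM in the mutant line) and HMA1 lower (5.00), against 29.0% and 30.4%. Within the mutant line HMA4 was higher (listed at 0 without and 11.2 FPKM with kanamycin), and RAN1 and HMA1 were lower, against 35.7% and 27.1%. PAA1 was at 20.2 FPKM in wbc19 mutant + kanamycin and differed between the lines with kanamycin by less than the limit. HMA4 would have averaged under 5 FPKM had its highest value, in control + kanamycin, been 0. Its place as higher in that library therefore depends in part on the limit on the mean.

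Among the other metal-binding genes, 5 of 7 metallothionein genes had a mean of at least 5 FPKM, and their summed level was 3156 to 4014 FPKM over the libraries. MT1A, MT2B, MT2A and MT3 were the highest. MT1C was lower in control + kanamycin (34.7 FPKM) than in control (142), the only one past the limit there, and MT1A was the only one higher in wbc19 mutant (2216) than in control (922). No metallothionein gene was lower in wbc19 mutant than in control by the limit. Of all genes, 26.6% were higher and 30.8% lower in the first of these comparisons, and 23.9% and 37.2% in the second. None passed the limit between the lines with kanamycin, where 29.0% of all genes were higher and 30.4% lower. Within the mutant line MT1A and MT1C were lower with kanamycin (1065 and 33.1 FPKM) than without (2216 and 85.1), against 27.1% of all genes. None was higher there, against 35.7%. All 6 genes of glutathione and phytochelatin synthesis and of vacuolar phytochelatin transport were counted. They had 1 higher and 0 lower in control + kanamycin than in control (26.6% and 30.8% of all genes), 1 and 0 in wbc19 mutant than in control (23.9% and 37.2%), 2 and 1 between the lines with kanamycin (29.0% and 30.4%) and 0 and 2 with kanamycin in the mutant line (35.7% and 27.1%), and GSH1, the first enzyme of glutathione synthesis, was at 75.8 to 93.2 FPKM. The phytochelatin synthase gene CAD1 was higher in control + kanamycin (49.0 FPKM) than in control (21.5), and lower in wbc19 mutant + kanamycin (13 FPKM) than in control + kanamycin and in wbc19 mutant (31.6). PCS2 was higher in wbc19 mutant (20.1) than in control (2.47) and lower with kanamycin in that line (1.29). PCS2 would have averaged under 5 FPKM had its value in wbc19 mutant been 0. Its place in both comparisons therefore depends in part on the limit on the mean. The vacuolar transporters ABCC1 and ABCC2 were higher in wbc19 mutant + kanamycin (23.2 and 19.2 FPKM) than in control + kanamycin (10.3 and 5.85).

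The genes for attaching and processing the CaaX lipid were read at low levels. Of 8 genes, 4 had a mean of at least 5 FPKM: FTA and PGGT-I, which are subunits of protein prenyltransferases, the CaaX protease ATSTE24 and the lyase FCLY. All 4 were lower in wbc19 mutant than in control, as were 37.2% of all genes counted. The 3 genes FTA, PGGT-I and FCLY were listed at 0 in wbc19 mutant, after 21.5, 13.2 and 8.66 FPKM in control. FTA, PGGT-I and ATSTE24 would have averaged under 5 FPKM had their highest value, in control, been 0. Their place as lower than control therefore depends in part on the limit on the mean. ATSTE24 was at 19.0 and 0.443 FPKM in the control line without and with kanamycin and at 8.39 and 10.1 in the mutant line, the same order of libraries as AT2G36950. Among these 4 genes it was the only one past the limit in control + kanamycin against control, where 30.8% of all genes were lower. Between the lines with kanamycin it was higher in the mutant line and FTA lower (11.4 and 4.62 FPKM), against 29.0% and 30.4% of all genes. Within the mutant line FTA, PGGT-I and FCLY were higher with kanamycin, at 4.62, 5.25 and 9.01 FPKM, against 35.7% of all genes. The 4 genes were counted in a library that listed 45.4% of the genes above 0 in control at 0, and the part of this was not tested.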

How the data were processed

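Poly(A) RNA of seedlings was sequenced as single-end reads, 1 library per condition. Per the paper's methods the authors clipped reads to 36 bases, used TopHat2 2.0.5 for alignment to TAIR10 and Cufflinks 2.0.2 for assembly, and Cuffdiff 1.3.0 gave the deposited FPKM; pooling of plants is not given in the sources used here. The table headers write rpkm. Deposited p-values, q-values and fold changes of the authors' comparisons were not used. Of 33624 entries, 7 without values and 78 whose repeated values differed were left out.

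Log2 differences were computed as log2(FPKM + 1), and counted at 1 or more among genes averaging 5 FPKM or more. Reads were estimated from the smallest FPKM steps of single-transcript genes over 700 bases, with transcript length less 36 bases from RefSeq TAIR10.1, and intervals are exact 95% Poisson or binomial intervals. The step estimate and the count of changed genes were tried on simulated Poisson reads. The simulation held no well-read genes listed at 0, so it does not test the part of such values in the counts. Named were members of at least 5 FPKM, the nearest ones outside and some further under that limit. From the lists, mainly genes that were highest or passed the 2-fold limit were named. The members and lists were chosen with earlier results of these data known. Alternatives were pseudocounts of 0.1 and 5, a mean of at least 20 FPKM, no limit, upper-quartile scaling and leaving out values listed at 0. Python 3.11.15, numpy 2.4.6, pandas 2.3.3, scipy 1.17.1, Biopython 1.88 and matplotlib 3.10.9 were used.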

Additional observations from a re-analysis of the deposited data

Results flagged for a closer look

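Kanamycin went with opposite differences in the control line and the mutant line for 4 of the 13 members that averaged 5 FPKM or more, each at least 2-fold on the FPKM + 1 scale in both lines. Among the 9761 genes counted, 18.6% did the same. With 1 library per condition the difference was not tested, and for all but AT2G36950 at least 1 of the 4 values was listed at 0. AT3G06130 and AT5G02600 averaged 5 FPKM only with their highest value, in control + kanamycin and control respectively.

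AT2G36950 was 24.4 FPKM lower with kanamycin in the control line and 12 FPKM higher in the mutant line, so the changes differed by 36.4 FPKM. AT4G16380 was 12.7 FPKM lower and 45.5 higher, a gap of 58.2 FPKM that rests on a value listed at 0 in wbc19 mutant. AT5G02600 was 14.6 FPKM lower and 13.9 higher, a gap of 28.5 FPKM with values listed at 0 in control + kanamycin and wbc19 mutant. AT3G06130 went the other way, 9.24 FPKM higher in the control line and 7.76 lower in the mutant line, a gap of -17.0 FPKM with a value listed at 0 in wbc19 mutant + kanamycin. Control + kanamycin and wbc19 mutant, the low libraries of AT2G36950 and AT5G02600, had the fewest genes above 0 of any library (11090 and 9013). The part of this in the differences was not tested.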

How the results depend on the processing

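Counts of members are given as higher and then lower. With a pseudocount of 0.1 every count stayed within 1.5 times. With a pseudocount of 5, 1 member was higher in control + kanamycin than in control, and 1 was lower in wbc19 mutant + kanamycin than in control + kanamycin. With a mean of at least 20 FPKM, which leaves 3 members, the counts were 0 and 2 for kanamycin in the control line, 1 and 0 between the lines without kanamycin, 1 and 0 with it, and 0 and 1 for kanamycin in the mutant line. With no limit they were 5 and 14 for kanamycin in the control line, 9 and 5 between the lines with it, 15 lower between the lines without it and 10 higher for kanamycin in the mutant line. With upper-quartile scaling, 0 were higher with kanamycin in the control line and 1 was lower between the lines with kanamycin. With values listed at 0 left out, 3 were lower with kanamycin in the control line, 1 higher and 1 lower between the lines without it, 1 lower between the lines with it, and 1 higher and 0 lower for kanamycin in the mutant line. The balance of higher against lower members turned with a mean of at least 20 FPKM between the lines without kanamycin (2 and 7 to 1 and 0) and for kanamycin in the mutant line (5 and 3 to 0 and 1). Leaving out genes above 0 in 1 library only, chosen after seeing the data, left 1 higher between the lines without kanamycin. Of the 32 differences of single members past the limit, 32 stayed past it with a pseudocount of 0.1, 29 with a pseudocount of 5 and 29 with upper-quartile scaling, none changed sign under these settings, and those lost belonged to AT4G16380, AT3G06130 and AT5G19090. No paired analysis was possible because each condition has 1 library. Estimated depth differed: 1 read on a transcript of 1 kilobase was worth 0.666 to 1.33 FPKM, and a value listed at 0 has no lower bound here. The libraries with the smallest steps, control + kanamycin and wbc19 mutant, had the fewest members above 0 (13 and 7).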
